A study of Homo sapiens with 8 samples.

Results

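The genes for the 7 inhibitors of cyclin-dependent kinases (CDKs) were examined in U87, an established human glioblastoma cell line. They were taken by symbol: the CIP/KIP genes CDKN1A (p21), CDKN1B (p27) and CDKN1C (p57), and the INK4 genes CDKN2A (p16 and ARF), CDKN2B (p15), CDKN2C (p18) and CDKN2D (p19). All 7 were among the 58884 genes of the count table. CDKN1A, CDKN1B and CDKN2D passed the filter on low counts, which left 14741 genes for testing, and the other 4 had 0 counts in every library.

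Total RNA was sequenced after removal of ribosomal RNA in 8 libraries, which fell into 4 groups of 2. The combination group was on long-term AsiDNA and also received belinostat, the belinostat group received belinostat without AsiDNA, the AsiDNA group was on long-term AsiDNA alone, and the control group received DMSO. Belinostat, an inhibitor of histone deacetylases, was used at 1 µM for 24 h, while for AsiDNA, a short DNA molecule that imitates a broken DNA end, the sources used here give neither dose nor duration. The labels name the cultures MTU87 and LTAU87 without tying either name to a library. Every group was the same cell line in medium with 10% serum and 1% antibiotics.

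CIP/KIP proteins bind complexes of cyclins with CDKs, above all those of CDK2, and slow the entry into S phase, whereas INK4 proteins bind CDK4 and CDK6 and keep cyclin D from activating them. Both actions keep the retinoblastoma protein unphosphorylated, which restrains E2F transcription factors. CDKN1A is known to be raised by many deacetylase inhibitors, and U87 is known to lack the CDKN2A locus.

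Library totals ranged between 6057394 and 9699637 counts. A count of 0 allows up to 3 counts, which come to between 0.309 and 0.495 CPM (counts per 1000000 counts of the library) depending on the library. Such limits cover counting error only. The labels do not tie the replicates to separate cultures, so the p-values measure the spread between these libraries, which may be technical. Among tested genes with a mean log2 CPM over 4, DMSO replicates differed by more than 1.5-fold in 11.1%. In the other groups this share lay between 0.184% and 0.786%, and genes with lower counts were left out of it. MALAT1 and NEAT1, which are nuclear RNAs, together took 3.12% and 2.06% of counts in the combination libraries, 12.2% and 13.4% with belinostat, 0.753% and 0.688% with AsiDNA, and 0.911% and 2.82% with DMSO. Genes annotated as sense-intronic took 0.0561% and 0.0440% of counts in the combination libraries, 0.128% and 0.142% with belinostat, 0.0556% and 0.0510% with AsiDNA, and 0.0570% and 0.113% with DMSO. Of the glial markers, VIM and CD44 were abundant in every library, with at least 1338 CPM and 1512 CPM, while GFAP, S100B and AQP4 did not exceed 0.542 CPM in any library. The 7 glial markers summed to 6006 and 6047 CPM in the combination libraries, 2995 and 3028 CPM with belinostat, 7639 and 7678 CPM with AsiDNA, and 5474 and 7556 CPM with DMSO. Of the 4 tested glial markers, VIM fell by 1.66 ± 0.189 (log2) in belinostat against DMSO libraries, NES rose by 2.60 ± 0.212, SOX9 rose by 1.28 ± 0.256 and CD44 had -0.01 ± 0.148. Immune and epithelial markers were low: the 3 immune markers summed to at most 3.599 CPM and the 4 epithelial markers to at most 2.52 CPM in any library. Neuronal and endothelial markers were higher, summing to at most 134.8 and 22.73 CPM, and are described further below.

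CDKN1A encodes p21, which binds CDK2 complexes and also PCNA. Its gene spans chr6:36676460-36687339 on the plus strand (GRCh38). The combination libraries held 81.4 and 78.1 CPM, the belinostat libraries 48.3 and 42.3 CPM, the AsiDNA libraries 125.1 and 130.3 CPM, and the DMSO libraries 129.5 and 109.9 CPM. The belinostat libraries were lowest, the combination libraries lay between them and the rest, and AsiDNA and DMSO libraries overlapped. CDKN1B encodes p27, whose amount is known to be set largely by its breakdown, and it lies at chr12:12715058-12722371 on the plus strand. It had 49.8 and 53.5 CPM in the combination libraries, 41.5 and 44.2 CPM with belinostat, 43.4 and 44.1 CPM with AsiDNA, and 44.9 and 41.6 CPM with DMSO. Only the combination libraries stood apart, above the other 6. CDKN2D encodes p19, an INK4 inhibitor of CDK4 and CDK6, and lies at chr19:10566462-10569059 on the minus strand. It had 28.8 and 24.8 CPM in the combination libraries, 19.2 and 20.8 CPM with belinostat, 34.6 and 38.1 CPM with AsiDNA, and 41.2 and 35.2 CPM with DMSO. As for CDKN1A, the belinostat libraries were lowest, the combination libraries came next, and AsiDNA and DMSO libraries overlapped.

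**Figure D1:**
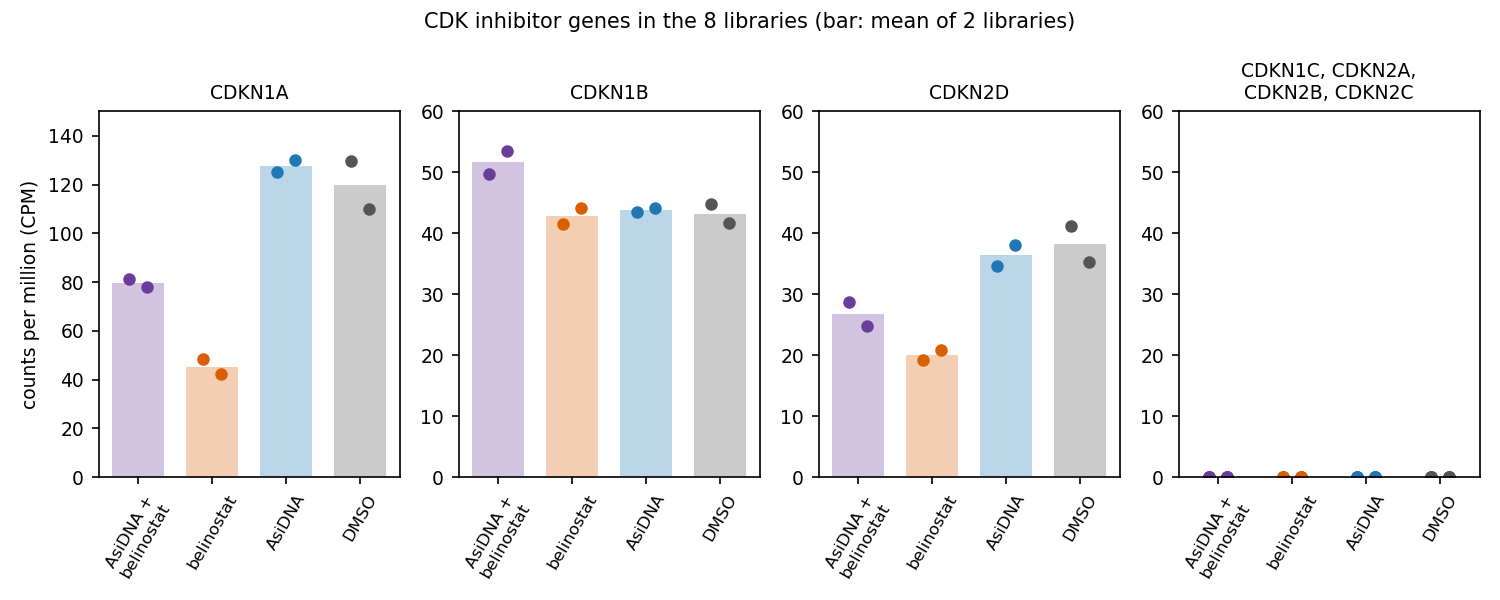
Counts scaled to CPM (vertical axis) of the CDK inhibitor genes in the combination, belinostat, AsiDNA and DMSO groups; points are libraries and bars are means of 2 libraries, with a wider scale for CDKN1A. CDKN1A and CDKN2D were lowest with belinostat, CDKN1B was highest in the combination, and the 4 genes in the last panel were at 0 in all 8 libraries.

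Per kilobase of merged exons, the only scale used here to compare levels between genes, CDKN1A was the highest of the 3 in AsiDNA and DMSO libraries. It averaged 26.1 ± 0.76 CPM per kb in the combination, 14.8 ± 1.4 with belinostat, 41.9 ± 1.22 with AsiDNA and 39.2 ± 4.55 with DMSO (SD, n = 2 each). CDKN2D averaged 17.8 ± 1.86, 13.3 ± 0.741, 24.2 ± 1.65 and 25.4 ± 2.82 CPM per kb in the same 4 groups, and CDKN1B averaged 18.4 ± 0.934, 15.2 ± 0.689, 15.6 ± 0.166 and 15.4 ± 0.805 CPM per kb. The order with DMSO and with AsiDNA was thus CDKN1A, CDKN2D, CDKN1B, each step wider than the SDs. In the combination CDKN1A led, and CDKN1B and CDKN2D did not differ beyond their spread. With belinostat, neither CDKN1B and CDKN1A nor CDKN1A and CDKN2D differed beyond their spread, while CDKN1B lay above CDKN2D by more than their SDs. When the length of the longest transcript was used in place of the merged exons, CDKN1A led with belinostat too, at 20.0 ± 1.88 CPM per kb, against 16.1 ± 0.729 for CDKN1B and 14.1 ± 0.783 for CDKN2D. Of the summed level per kb of the 3 genes, CDKN1A made up 42.0% and 41.9% in the combination libraries, 36.5% and 31.9% with belinostat, 51.6% and 51.0% with AsiDNA, and 49.5% and 48.5% with DMSO. By mean level per kb among 11999 tested protein-coding genes, CDKN1A ranked 1444 in the combination, 2357 with belinostat, 922 with AsiDNA and 930 with DMSO. In the same order of groups CDKN2D ranked 2202, 2720, 1737 and 1567, and CDKN1B ranked 2134, 2285, 2854 and 2890.

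The bases before the RefSeq start (GRCh38.p14) of the 3 genes with counts are shown because CDKN1A is known for GC boxes, the sites bound by SP1, close to its start, and because CDKN1A and CDKN2D moved alike here. Capitals mark GGGCGG, the core of a GC box, and CCAAT, each read on both strands (CCGCCC and ATTGG on the other). The windows of 250 bases lie at chr6:36678464-36678713 (plus strand), chr12:12717118-12717367 (plus strand) and chr19:10568980-10569229 (minus strand), and each of the 3 starts used by RefSeq lies inside the annotated span of its gene.
CDKN1A: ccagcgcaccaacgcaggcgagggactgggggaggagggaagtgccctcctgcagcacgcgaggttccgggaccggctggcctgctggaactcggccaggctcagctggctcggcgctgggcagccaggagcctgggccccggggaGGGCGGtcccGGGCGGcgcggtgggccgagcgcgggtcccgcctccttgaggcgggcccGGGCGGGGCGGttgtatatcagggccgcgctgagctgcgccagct
CDKN1B: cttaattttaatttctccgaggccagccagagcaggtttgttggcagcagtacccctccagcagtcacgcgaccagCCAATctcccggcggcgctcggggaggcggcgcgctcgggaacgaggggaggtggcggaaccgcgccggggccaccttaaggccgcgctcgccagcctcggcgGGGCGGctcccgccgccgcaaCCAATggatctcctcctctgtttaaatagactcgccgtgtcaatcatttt
CDKN2D: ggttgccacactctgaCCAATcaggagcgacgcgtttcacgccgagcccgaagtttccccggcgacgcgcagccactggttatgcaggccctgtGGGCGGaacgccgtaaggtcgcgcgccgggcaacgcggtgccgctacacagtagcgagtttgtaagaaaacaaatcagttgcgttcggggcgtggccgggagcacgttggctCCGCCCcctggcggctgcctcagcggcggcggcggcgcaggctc
The CDKN1A window held 4 matches to GGGCGG, whose first bases lie 104, 94, 45 and 40 bases before the start, the last pair sharing 1 base, and no match to CCAAT. The CDKN1B window held 1 match to GGGCGG, at 71 bases, and 2 to CCAAT, at 174 and 50 bases. The CDKN2D window held 2 matches to GGGCGG, at 156 and 44 bases, and 1 to CCAAT, at 234 bases. Of 35116 RefSeq promoters of this length, 42.6% held GGGCGG at least once, 24.3% at least 2 times and 13.9% at least 3 times, and 32% held CCAAT. The windows were 76.4% G and C for CDKN1A, 64.4% for CDKN1B and 67.6% for CDKN2D. A match is a run of letters and not a measured site. The table holds a promoter for 6 of the 7 genes.

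The belinostat libraries set against DMSO ask how the deacetylase inhibitor alone changed these genes. CDKN1A and CDKN2D were lower with belinostat, and CDKN1B did not pass the test. CDKN1A fell by 1.27 ± 0.144 on the log2 scale (SE; adjusted p = 7.8e-06), and 9.3% of tested genes had a lower log2 fold change. CDKN2D fell by 0.81 ± 0.165 (adjusted p = 0.000965). CDKN1B had a log2 fold change of 0.12 ± 0.135 (adjusted p = 0.468), and this was -0.02 without DMSO replicate 2, -0.0035 without belinostat replicate 2 and -0.01 when libraries were scaled by their size only. The count of 2 of 3 tested genes stands beside 57.4% of all tested genes called in this comparison, 29.8% higher and 27.6% lower, so the share says nothing particular about these genes. All p-values are from edgeR's quasi-likelihood test with Benjamini-Hochberg adjustment over all tested genes, called under 0.05. Both calls held when each library was left out in turn, with log2 fold changes between -1.46 and -1.08 for CDKN1A and between -0.999 and -0.63 for CDKN2D. In bulk RNA, fewer cells that express a gene and less RNA per cell cannot be told apart. The share of sense-intronic and of MALAT1 and NEAT1 counts was highest in the belinostat libraries. When a term for the sense-intronic share was added to the model, a choice made after seeing the data, CDKN1A had -1.01.

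Long-term AsiDNA set against DMSO asks what AsiDNA alone changed. None of the 3 genes was called by edgeR in this comparison, in which 0.0204% of tested genes were called; 0 of the 3 had an unadjusted p under 0.05, and DESeq2 called 0. CDKN1A had a log2 fold change of 0.14 ± 0.138 (adjusted p = 0.668), CDKN1B one of 0.07 ± 0.135 (adjusted p = 0.846) and CDKN2D one of -0.02 ± 0.158 (adjusted p = 0.957). The CDKN1A value turned on which DMSO library was used. It was 0.35 without DMSO replicate 1 (adjusted p = 0.00987) and -0.03 without DMSO replicate 2 (adjusted p = 1). CDKN1B had -0.04 without DMSO replicate 2, and CDKN2D had 0.18 without DMSO replicate 1 and 0.06 without AsiDNA replicate 1. With the sense-intronic term, CDKN1A had -0.04 and CDKN1B -0.06.

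In cells on AsiDNA, belinostat was compared within the AsiDNA background, as the combination against AsiDNA. CDKN1A was lower and CDKN1B higher in the combination, and CDKN2D did not pass the test. CDKN1A fell by 0.55 ± 0.14 on the log2 scale (adjusted p = 0.00654), CDKN1B rose by 0.37 ± 0.135 (adjusted p = 0.0381), and CDKN2D had -0.31 ± 0.163 (adjusted p = 0.146). These 2 calls of 3 stand beside 42.9% of all tested genes. The CDKN1A call was lost without AsiDNA replicate 2 (log2 fold change -0.52, adjusted p = 0.0656). The CDKN1B call was lost when any of the 6 libraries outside DMSO was left out, with adjusted p between 0.057 and 0.238, and with the replicate block (0.37, adjusted p = 0.0502). CDKN2D passed without DMSO replicate 1 (-0.31, adjusted p = 0.0392) or without DMSO replicate 2 (-0.32, adjusted p = 0.0361).

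Against belinostat alone, the combination shows how belinostat-treated cells with and without AsiDNA differed. CDKN1A and CDKN2D were higher in the combination, by 0.86 ± 0.146 (adjusted p = 0.000783) and 0.47 ± 0.17 (adjusted p = 0.0379) on the log2 scale, and CDKN1B had 0.32 ± 0.135 (adjusted p = 0.0675). The 2 calls of 3 stand beside 43.4% of all tested genes. The CDKN1A call held when each library was left out in turn, with log2 fold changes between 0.82 and 1.03. It was lost with the sense-intronic term (0.38, adjusted p = 0.537). The CDKN2D call was lost without any of the 6 libraries outside DMSO, with adjusted p between 0.0509 and 0.13, and with the sense-intronic term (0.08, adjusted p = 0.962). CDKN1B passed without DMSO replicate 1 (0.35, adjusted p = 0.00453) or without DMSO replicate 2 (0.35, adjusted p = 0.00515). The belinostat libraries held between 0.128% and 0.142% sense-intronic counts, and the combination libraries between 0.0440% and 0.0561%. The share thus did not overlap between these groups, so the model term and the group difference cannot be told apart.

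The combination against DMSO shares its libraries with the comparisons above. CDKN1A fell by 0.40 ± 0.14 (adjusted p = 0.0289) and CDKN1B rose by 0.44 ± 0.134 (adjusted p = 0.0145), while CDKN2D had -0.33 ± 0.161 (adjusted p = 0.104). The 2 calls of 3 stand beside 48.1% of all tested genes. The CDKN1A change was -0.20 without DMSO replicate 1 (adjusted p = 0.127), and its call was also lost without either AsiDNA library or either combination library, with adjusted p between 0.064 and 0.111. The CDKN1B call was lost without combination replicate 1 (0.47, adjusted p = 0.0505) and without combination replicate 2 (0.35, adjusted p = 0.149). CDKN2D passed without DMSO replicate 2 (-0.51, adjusted p = 0.00345).

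The interaction tests whether belinostat changed a gene by a different amount in cells on AsiDNA than in cells without it. CDKN1A had an interaction of 0.72 ± 0.201 on the log2 scale, the smaller fall in cells on AsiDNA, with an adjusted p of 0.0903 (0.00306 unadjusted) in edgeR's quasi-likelihood test. The interaction was 0.25 ± 0.191 for CDKN1B (adjusted p = 0.458) and 0.50 ± 0.232 for CDKN2D (adjusted p = 0.231). None of the 3 was called by edgeR, beside 0.00678% of all tested genes; 1 of the 3 had an unadjusted p under 0.05, as had 3203 of all 14741 tested genes. DESeq2 called 1 of the 3, CDKN1A (0.77, adjusted p = 0.0285), and 679 genes in all. CDKN1A was called without DMSO replicate 1 (0.53, adjusted p = 0.0187) and without DMSO replicate 2 (0.91, adjusted p = 1.08e-06), and CDKN2D without DMSO replicate 2 (0.68, adjusted p = 0.00581).

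**Figure D2:**
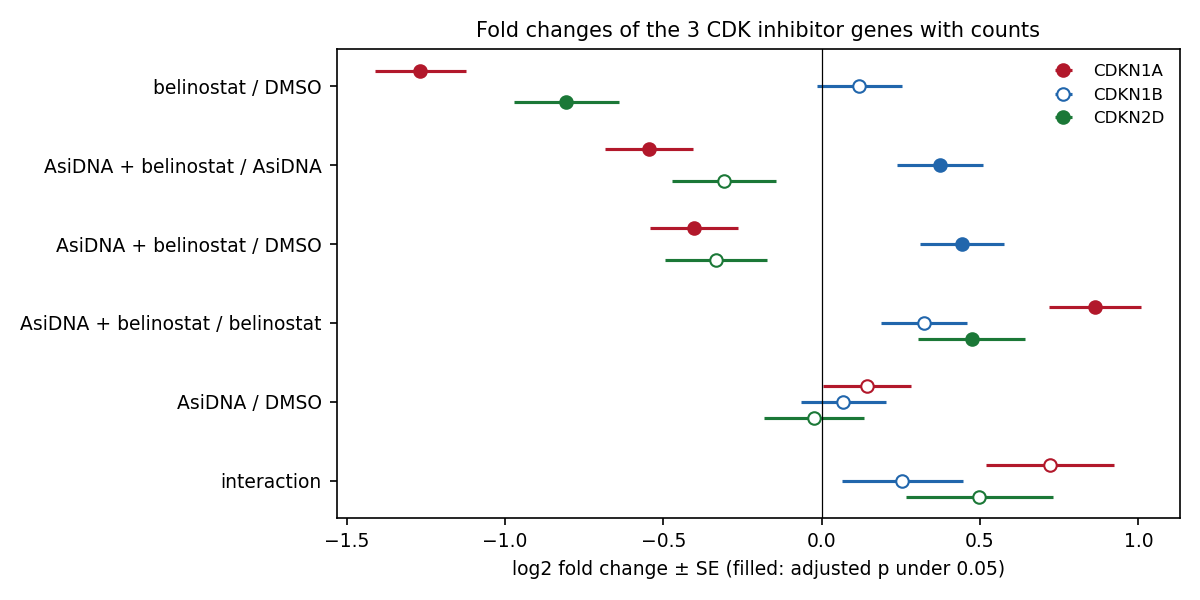
Log2 fold changes with standard errors (horizontal axis) of CDKN1A, CDKN1B and CDKN2D in the 5 comparisons and the interaction; filled points have an adjusted p under 0.05. CDKN1A lay lowest with belinostat against DMSO, at -1.27, and highest in the combination against belinostat, at 0.86.

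Across the 8 libraries, log2 CPM of CDKN1A and CDKN2D had a Pearson r of 0.962, CDKN1A and CDKN1B one of -0.155, and CDKN1B and CDKN2D one of -0.177. These describe 8 libraries that fall into 4 groups by treatment, and no test was run on them. Among 11101 genes, those most like CDKN1A were SLC10A3 (r = 0.999), GATAD2A (0.999) and RTL6 (0.998), and 1791 genes had an r over 0.9 with it. Those most like CDKN1B were EGLN1 (0.997), BNIP3L (0.994) and MXRA7P1 (0.993), with 613 genes over 0.9. Those most like CDKN2D were LSM2 (0.989), SOCS5 (0.983) and FAM72B (0.983), with 1352 genes over 0.9.

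Both CDKN1B and CDKN1A overlap other annotated genes, and the sources used here do not give the strand setting of the counting. CDKN1B contains the sense-intronic gene AC008115.3 on the same strand, which had 22 and 22 counts in the combination libraries, 25 and 24 with belinostat, 18 and 7 with AsiDNA, and 6 and 7 with DMSO. That gene rose with belinostat against DMSO by 2.39 ± 0.51 on the log2 scale (adjusted p = 0.0013), where CDKN1B was not called. In the combination, where CDKN1B was called against DMSO and AsiDNA, AC008115.3 rose by 2.29 ± 0.516 against DMSO (adjusted p = 0.00244). Against AsiDNA it had 0.98 ± 0.47 (adjusted p = 0.111). Its counts are small beside the 268 to 446 counts of CDKN1B in a library. CDKN1A overlaps DINOL on the opposite strand, which had 4 counts in all 8 libraries. The nearest tested neighbours of CDKN1A moved both ways with belinostat against DMSO: SRSF3, a splicing factor gene, fell by 0.80 ± 0.141 and PPIL1 fell by 0.87 ± 0.264, while STK38 rose by 0.68 ± 0.159 and C6orf89 by 0.46 ± 0.146.

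CDKN2A and CDKN2B, the INK4 genes at 9p21, were at 0 counts in all 8 libraries (chr9:21967753-21995301 and chr9:22002903-22009363, minus strand). With 63354409 counts in all libraries together, a count of 0 allows up to 0.0473 CPM. Both lie in a run of 27 consecutive protein-coding genes, each at 0, between MLLT3 and IZUMO3. The run spans chr9:20341665-24545946 (4.204 Mb) and was delimited after its values were seen, so it is given with no test. It holds 16 interferon genes, which are silent in most unstimulated cells, and also MTAP, an enzyme gene of methionine salvage, FOCAD and KLHL9. Of 77 genes of any type in it, 74 were at 0, and the 77 held 12 counts, 7 of them in the pseudogene CLIC4P1. CDKN2B-AS1, an antisense RNA gene of the locus, had 1 count in all. The flanking genes had counts: SLC24A2 had 2296 and TUSC1 801 over the 8 libraries. Across the genome, 18% of 19858 protein-coding genes were at 0, and 7 other runs of genes with at most 3 counts were as long in genes or longer.

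CDKN2C, the INK4 gene at chr1:50960745-50974633 (plus strand), lies in a shorter run of 7 protein-coding genes with at most 3 counts each, of which 3 were at 0. The run spans 2.62 Mb, from AGBL4 to C1orf185, and includes FAF1, which had 3 counts. Its flanks SPATA6 and RNF11 had 1296 and 7829 counts, and 77 other runs in the genome were as long in genes or longer. RNA counts do not tell a missing locus and a silent one apart, for these or the 9p21 genes.

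CDKN1C, the CIP/KIP gene at chr11:2883213-2885773 (minus strand), lies in an imprinted domain where the long RNA KCNQ1OT1, made from the paternal copy, is known to silence neighbours on that copy. CDKN1C was at 0 in all 8 libraries, and its neighbours differed. KCNQ1 had 1 count and SLC22A18AS 3 counts over the 8 libraries, while others were well counted. NAP1L4, a histone chaperone gene, had 858 and 1198 counts in the combination, 1181 and 836 with belinostat, 1652 and 1412 with AsiDNA, and 2033 and 2128 with DMSO. KCNQ1OT1 had 1467 and 1234 counts in the combination libraries, 6971 and 5155 with belinostat, 618 and 488 with AsiDNA, and 795 and 2128 with DMSO. It rose with belinostat against DMSO by 2.55 ± 0.319 on the log2 scale (adjusted p = 1.72e-05) and in the combination against AsiDNA by 1.46 ± 0.319 (adjusted p = 0.00222). In the combination it fell by 2.07 ± 0.314 relative to belinostat (adjusted p = 0.000492). PHLDA2, an imprinted growth regulator, had 12 and 11 counts in the combination, 4 and 5 with belinostat, 22 and 26 with AsiDNA, and 24 and 21 with DMSO. The run around CDKN1C counted only 4 protein-coding genes, and 263 other runs were as long or longer.

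**Figure D3:**
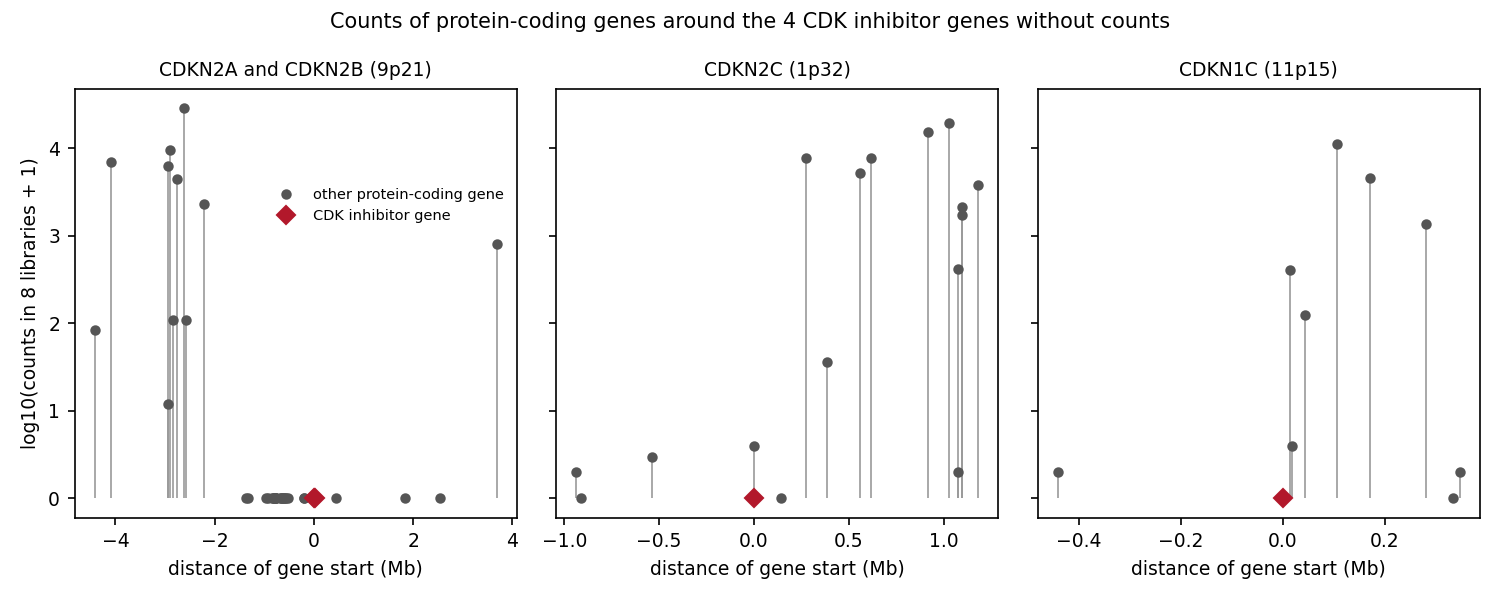
Counts summed over 8 libraries, as log10(counts + 1) on the vertical axis, of protein-coding genes against the distance of their start from that of CDKN2A, CDKN2C or CDKN1C in Mb; red diamonds are the CDK inhibitor genes. Around CDKN2A every protein-coding gene of a 4.204 Mb run is at 0, while counted genes lie close to CDKN2C and CDKN1C on at least 1 side.

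Among the G1 and mitotic cyclin and CDK genes, more fell than rose with belinostat against DMSO. The G1 set also holds CDK7, CCNH and MNAT1 of the CDK-activating kinase, which is not among the inhibitor targets named above. Of 11 tested G1 cyclin and CDK genes, 5 fell and 2 rose, beside 27.6% of all tested genes lower and 29.8% higher (57.4% called). Their median on the log2 scale was -0.36, and that of all tested genes was 0.06. CCND1, cyclin D1, had 406.1 and 406.1 CPM in the combination libraries, 137.9 and 160.6 CPM with belinostat, 1214 and 1169 CPM with AsiDNA, and 1252 and 991 CPM with DMSO. With belinostat it fell by 2.78 ± 0.162 relative to DMSO (adjusted p = 4.13e-08). In the combination it fell by 1.42 ± 0.153 relative to AsiDNA (adjusted p = 9.12e-06). CCNA2, cyclin A2, fell by 2.33 ± 0.175 and CCNE2, cyclin E2, fell by 1.90 ± 0.179 with belinostat. CCNH, the cyclin of the CDK-activating kinase, rose, and in the combination against AsiDNA it rose by 0.78 ± 0.133. CCNB1, CCNB2 and CDK1, the mitotic set, all fell with belinostat, with a median of -2.19. Of 12 tested pocket protein and E2F genes 7 fell and 3 rose (median -0.93), among them TFDP1, the partner of E2F proteins, which fell by 2.12 ± 0.123. In the combination against AsiDNA, where 21.7% of tested genes were higher and 21.2% lower, the G1 set had 5 lower and 2 higher (4 called in all without AsiDNA replicate 2), the mitotic set 3 lower and the E2F set 9 lower and 2 higher. Against belinostat alone, where 22% were higher and 21.4% lower, the combination had 5 of the 11 G1 genes higher and none lower, among them CDK4, a kinase that INK4 proteins bind, by 0.68 ± 0.133. With the sense-intronic term 1 G1 gene was called in place of 5, and 85 genes in all in place of 6398. That term cannot be told apart from the group difference.

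The genes that act on the inhibitors themselves moved in both directions. Of 11 genes for the breakdown of p27 and p21, 6 fell and 2 rose with belinostat against DMSO (median -0.39). In this comparison 27.6% of all tested genes fell and 29.8% rose, 57.4% in all, and the counts of the next lists are to be read beside the same shares. SKP2, which marks p27 for breakdown, fell by 1.37 ± 0.172, and its cofactor CKS1B fell by 1.14 ± 0.189. CUL1, the scaffold of that ligase, fell by 1.164 ± 0.121. DTL, a substrate receptor of the ligase that breaks down p21 in S phase, fell by 1.34 ± 0.165. The 2 that rose were RNF123, a ligase subunit that acts on p27, by 0.69 ± 0.184, and SKP1, the adaptor of the SKP2 ligase, by 0.35 ± 0.124, both named after their values were seen. Of 18 transcription factor and TGF-beta genes known to act on the inhibitor genes, 7 rose and 6 fell (median 0.06). TGFB2 rose by 2.03 ± 0.165 and SMAD3, a TGF-beta effector, by 1.65 ± 0.134. KLF6, an activator of CDKN1A, fell by 1.30 ± 0.12, and MYC fell by 1.07 ± 0.124. The other TGF-beta genes of the list, named after their values were seen, went the other way from TGFB2 and SMAD3. TGFB1 fell by 0.73 ± 0.164, SMAD2 by 0.58 ± 0.134 and SMAD4 by 0.58 ± 0.13. Of 10 Polycomb and other repressor genes 6 fell and 1, TBX3, rose by 1.61 ± 0.151 (median -0.71). TBX2, a repressor of CDKN2A and CDKN1A, fell by 3.08 ± 0.174. CDKN3, which belongs to neither the CIP/KIP nor the INK4 genes and encodes a phosphatase of CDK2, fell by 1.41 ± 0.149. In the combination against AsiDNA these 3 lists had 5 lower and 2 higher of the turnover genes, 4 and 6 of the transcription factors, and 5 and 1 of the repressors. Those counts stand beside 21.2% of all tested genes lower and 21.7% higher in that comparison, 42.9% in all. With AsiDNA against DMSO, edgeR called 0 of the 65 tested genes of these 6 lists, beside 0.0204% of all tested genes. An unadjusted p under 0.05 was found for 6 of the 65 and for 1674 of all 14741 genes, and DESeq2 called 1 of the 65 and 28 genes in all.

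**Figure D4:**
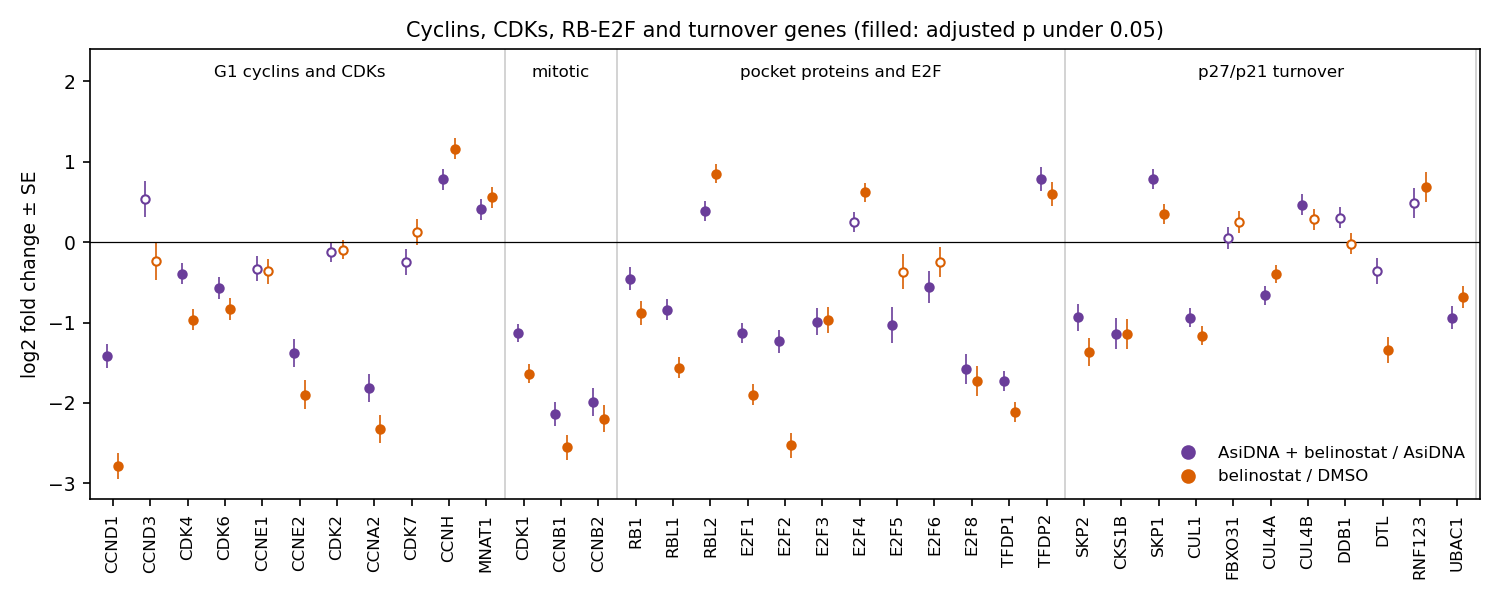
Log2 fold changes with standard errors (vertical axis) of tested cyclin, CDK, pocket protein, E2F and turnover genes, for the combination against AsiDNA (purple) and belinostat against DMSO (orange); filled points have an adjusted p under 0.05. CCND1, at -2.78 with belinostat against DMSO and -1.42 in the combination against AsiDNA, is the lowest of the G1 set with belinostat.

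Markers of other cell types moved with some of these results, and their part in them was not tested. The 3 neuronal markers summed to between 90.1 and 91.5 CPM in the combination, between 117.7 and 134.8 CPM with belinostat, between 38.3 and 44.3 CPM with AsiDNA, and between 39.2 and 63.3 CPM with DMSO, most of it from SNAP25. The 2 neuronal markers that were tested, SYT1 and SNAP25, both rose with belinostat against DMSO, where 29.8% of all tested genes were higher. RBFOX3 did not pass the filter and was at or under 0.1085 CPM in every library. The 3 endothelial markers summed to between 12.6 and 15.5 CPM in the combination, between 18.99 and 22.73 CPM with belinostat, between 3.85 and 6.26 CPM with AsiDNA, and between 5.26 and 5.75 CPM with DMSO. PECAM1 was the only 1 of these 3 that was tested. It rose by 1.98 ± 0.232 (log2) with belinostat against DMSO and by 1.62 ± 0.247 in the combination against AsiDNA. VWF and CDH5 did not pass the filter, and CDH5 was at 0 in all 8 libraries.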

How the data were processed

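Libraries were made with a stranded total RNA kit, per the labels' protocols. The submitters' processing notes name cutadapt 1.16 (a read trimmer), STAR 2.7.0 (an aligner), featureCounts 1.6.3 of Subread (a read counter) and the build GRCh38. What the authors deposited is a table of raw counts per gene (whole numbers with unequal library totals), and no normalization is recorded. The sources used here give neither the annotation release nor the strand setting.

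Low genes were removed by filterByExpr (edgeR 4.0.16, R 4.3.3), and libraries were scaled with TMM factors. A model with a mean for each of the 4 groups was fitted to all 8 libraries, with 4 residual degrees of freedom. For each of the 5 comparisons, and for the interaction, the quasi-likelihood F-test of edgeR was adjusted over 14741 genes and called under 0.05. The SE is the absolute log2 fold change divided by the square root of F, and ± on CPM is the SD. CPM divides by the total count of a library, without TMM factors. Log2 CPM, used for the correlations and the spread between replicates, does include TMM factors, with a prior count of 2 added. The steps were tested on simulated data.

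The genes and lists were chosen with earlier results of these data known. All 7 inhibitor genes were named. Unless stated, up to 4 called genes with the smallest adjusted p were named per list (1 list is not reported here), and the 3 genes with the highest r of log2 CPM (mean at least 2) as most alike. The named 9p21, 1p32 and 11p15 runs were chosen after seeing values. Symbols were found for 58876 of 58884 identifiers, and positions and exon lengths came from GENCODE 29. Alternatives were leaving out each library, a replicate block, fitting the compared groups alone, an adjusted p under 0.01, DESeq2 1.42.0, RLE factors, library size only, no filter, and 1 CPM in 2 libraries. A sense-intronic model term and a fit without the 10 most abundant genes were added after seeing the data. The sense-intronic share of both belinostat libraries lay above that of every other library. Its term therefore cannot be told apart from comparisons with the belinostat group. Where a library was left out, the lone library of its group was assumed to vary like the other groups.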

Additional observations from a re-analysis of the deposited data

How the results depend on the processing

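Of 303 alternative values of member log2 fold changes, 241 kept their direction and their side of the threshold, 31 lost and 21 gained a call, and 10 reversed. The cause was not tested. The reversals were of values that were not called. For CDKN1B with belinostat against DMSO they were -0.0132 (library size only) and -0.0408 (no filter), and leaving out each library gave between -0.0193 and 0.2275, with -0.0035 without belinostat replicate 2. With AsiDNA against DMSO, leaving out each library gave between -0.0277 and 0.3532 for CDKN1A, between -0.043 and 0.2075 for CDKN1B and between -0.1909 and 0.1792 for CDKN2D, and the sense-intronic term gave -0.0429 for CDKN1A and -0.0602 for CDKN1B.

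Inhibitor genes called in the combination against AsiDNA numbered 2, and 1 at an adjusted p under 0.01, with DESeq2, without a filter or with the replicate block. Against belinostat they numbered 2, with 1 at an adjusted p under 0.01 or with DESeq2 and 0 with the sense-intronic term. Against DMSO they numbered 2, with 0 at an adjusted p under 0.01 and 1 without a filter or with only the groups compared. In the interaction 0 were called, and 1 with DESeq2, without a filter, with 1 CPM in 2 libraries or without the 10 most abundant genes. Leaving out each library gave 2 called genes for belinostat against DMSO in every case, between 0 and 1 for AsiDNA against DMSO, between 0 and 3 for the combination against AsiDNA, between 1 and 3 against belinostat, between 0 and 3 against DMSO, and between 0 and 2 for the interaction.

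Over all genes, AsiDNA against DMSO had 3 calls, and 0 at an adjusted p under 0.01 or with only the groups compared, 1 with library size only, 28 with DESeq2, 520 without a filter, 5 with the replicate block and 47 with the sense-intronic term. The combination against belinostat had 6398 calls, 3804 at an adjusted p under 0.01 and 85 with the sense-intronic term, which also gave 1 called G1 cyclin or CDK gene in place of 5. The interaction had 1 call, and 0 at an adjusted p under 0.01, 10 with RLE factors, 157 with library size only, 679 with DESeq2, 1549 without a filter, 351 with 1 CPM in 2 libraries, 19 with the replicate block, 238 with the sense-intronic term and 386 without the 10 most abundant genes. Without each library in turn, the calls lay between 6322 and 10038 for belinostat against DMSO, between 0 and 4955 for AsiDNA against DMSO, between 4102 and 8247 for the combination against AsiDNA, between 3142 and 8477 against belinostat, between 4906 and 8821 against DMSO, and between 0 and 5358 for the interaction.

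Scaling by library size only moved the median log2 fold change of all genes by -0.14 for belinostat against DMSO, by -0.13 for the combination against AsiDNA and by -0.19 against DMSO. Of the called genes, 39.3% were then higher in the combination against AsiDNA, against 50.6% with TMM factors, and 36.6% against DMSO, where TMM gave 50.6%. The labels do not say that equal replicate numbers mark a batch, and the deviations of same-numbered libraries had correlations between -0.306 and 0.189, so the numbers were not used as pairs. The replicate block took 1 inhibitor call away, CDKN1B in the combination against AsiDNA, and changed no other. Depth limits the 4 genes at 0, for which up to 0.0473 CPM over all libraries is allowed.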
